A study of Homo sapiens with 32 samples.

Results

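The SOX and T-box (TBX) genes encode developmental transcription factors, and 32 of them were followed across the RNA-seq data of Ewing sarcoma cells with altered cohesin or Polycomb. Within these families members were taken by name, as every gene whose symbol is SOX or TBX followed by digits. The choice was made with earlier results of these data known. This gave 19 SOX and 13 TBX genes of the 28278 gene symbols in the count tables, and all 32 were matched by Ensembl identifier among the 60199 genes of the knockdown table.

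SOX proteins bind DNA through an HMG box that bends the double helix. They are grouped by sequence, among others into SOXB1 (SOX1, SOX2 and SOX3, neural progenitors), SOXC (SOX4, SOX11 and SOX12, progenitors and early neurons), SOXD (SOX5, SOX6 and SOX13, which lack an activation domain of their own), SOXE (SOX8, SOX9 and SOX10, neural crest, cartilage and glia) and SOXF (SOX7, SOX17 and SOX18, endothelium and endoderm). T-box proteins bind the T-element through the T-box domain and pattern the heart, limbs and mesoderm. Genes of both families are classical targets of the Polycomb repressive complex PRC2, whose catalytic subunit is EZH2 and whose core subunit is SUZ12, and which deposits H3K27me3.

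STAG2 is a subunit of cohesin, the ring complex that folds chromatin into loops, and STAG1 is its paralog. Loss of STAG2 recurs in Ewing sarcoma, a tumor of bone and soft tissue driven by the fusion protein EWS::FLI1. A673 is an Ewing sarcoma cell line, and its KO clones were all made from a single clone (WT clone, genotype iCas9) with an inducible Cas9 at the AAVS1 locus. In experiments 1 and 2 the STAG2-proficient libraries were 2 of the WT clone and 1 of parental A673 cells (genotype WT, without the Cas9) each, 6 in all, and the genotype iCas9+STAG2ko was sequenced in 2 libraries of experiment 1, numbered 5 and 24, and in 3 of experiment 2, from clones 2, 3 and 5. The sample titles name clones 1 and 4 for experiment 1, so no clone number recurs in the titles of the 5 KO libraries. The library numbers 5 and 24 of experiment 1 could not be matched to these titles. Whether number 5 marks the same clone in both experiments is therefore not certain, and if it does, the 5 KO libraries come from fewer clones. Experiment 2 also held 3 clones each of iCas9+EZH2ko and iCas9+SUZ12ko. Experiment 3 compared 3 iCas9+STAG1ko libraries, numbered 1, 5 and 7, with 1 WT clone and 1 parental library. In experiment 4, A673 cells (WT, mock transfected) were compared with cells that received siRNA against STAG2 (siSTAG2), with 3 libraries each. SK-N-MC cells with Cas9 (iCas9) and a STAG2 KO derivative, and A4573 cells, which carry Cas9 and lack STAG2 and are labelled WT, and their STAG2 knock-in derivative (STAG2 KI), gave 1 library each. Each KO group therefore rests on a few clones of 1 starting clone, and the isogenic pairs have no replicate.

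Libraries of A673 clones held 15734628 to 20663679 counts, isogenic libraries 29322507 to 32261248 counts, and knockdown libraries 6852340 to 8184632 reads recovered from the deposited values. Levels are given as CPM (counts scaled to library size and TMM-normalized) for the clones and isogenic cells and as normalized reads, as deposited, for the knockdown. STAG2 was at 255 to 358 CPM in proficient libraries and at 42.2 to 183 CPM in STAG2 KO libraries, with the library numbered 24 the highest. EZH2 fell by 1.98 and SUZ12 by 1.90 on the log2 scale in their own KO clones (adjusted p = 0.000137 and 0.000299, edgeR's quasi-likelihood test). STAG1 was at 61.1 CPM in the library numbered 1 labelled STAG1 KO, within the 57.4 and 69.1 CPM of the controls, and at 15 and 33.0 CPM in the libraries numbered 5 and 7. The library of STAG2 KO clone 5 in experiment 2 stood apart from the other KO libraries at several members described below. Both WT clone libraries of experiment 1 differed by little more than counting error (chi-square averaged over 13967 genes, 1.33), whereas those of experiment 2 differed more (9.41 over 13149 genes). Of 10 Ewing sarcoma markers, 9 had a mean above 1 CPM over the clone libraries, and CD99 is listed at 0 in the count tables although it had a mean of 6423 normalized reads in the knockdown controls. Over the A673 clone libraries, summed immune markers reached at most 1.49 CPM and summed epithelial markers at most 2.79 CPM.

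First, the members were ordered by level per length. In the 6 STAG2-proficient A673 libraries SOX2, a pluripotency and neural progenitor factor, came first with a median of 39.4 CPM per kb of exon (range 32.4 to 50.4). All SOXC genes followed, SOX12 at 24.4, SOX11 at 16.3 and SOX4 at 14.0 CPM per kb, and then SOX9 at 9.80 and SOX1 at 9.66 CPM per kb. The first TBX gene was TBX1, a pharyngeal and heart factor, at 3.48 CPM per kb, followed by SOX8 at 2.22, SOX6 at 1.88, SOX13 at 1.78 and TBX18 at 1.75 CPM per kb. Neighbours in this order overlapped in range except SOX2 and SOX12, SOX1 and TBX1, and TBX18 and SOX5, the last at 0.623 CPM per kb. SOX10, the neural crest and glial SOXE gene, and SOX14 had 0 counts in all 22 A673 clone libraries and in all 4 isogenic libraries, where 3 counts correspond to 0.135 to 0.191 CPM and 0.0910 to 0.0996 CPM. TBX10 had 1 count in the clone libraries, TBX22 at most 2 counts and SOX30 at most 4 counts in any of them. SOX15 had 1 to 14 counts per clone library and was tested in no comparison. A count was found in every clone library for 18 of the 32 members.

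Other Ewing sarcoma lines used other members. With STAG2, SK-N-MC cells had 0 counts of SOX9 and 1 count of SOX1, and A4573 cells had 0 counts of SOX1, although A673 cells expressed both genes. SOX18, an endothelial SOXF gene, was at 9.52 CPM per kb in SK-N-MC and 5.20 in A4573 against a median of 0.305 CPM per kb in A673. TBX5, a factor of heart and forelimb, was at 3.86 CPM per kb in A4573, 0.0410 in SK-N-MC and a median of 0 in A673. TBX20, a heart factor, was at 7.92 CPM per kb in A4573 and 1.86 in SK-N-MC with a median of 0 in A673. These are levels of 1 library per line and have no test.

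**Figure D1:**
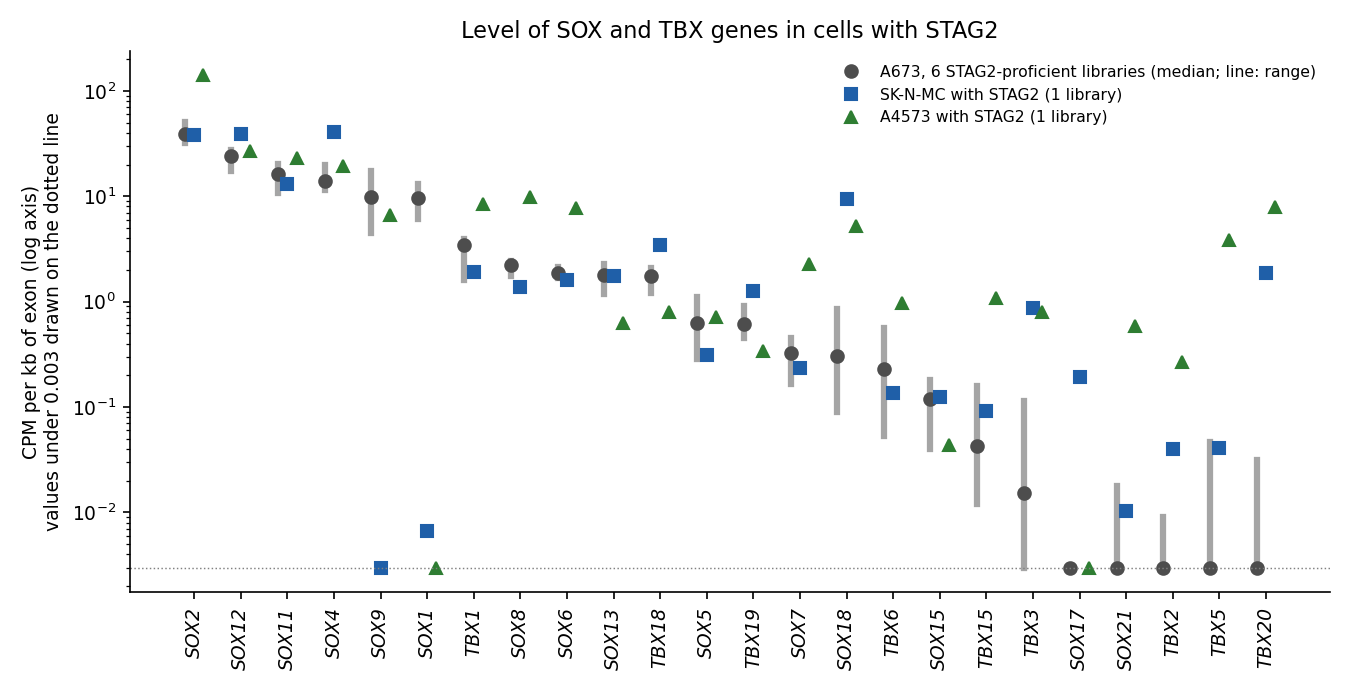
CPM per kb of exon (log axis) of members that reached 0.1 in any of the 3 lines, in cells with STAG2. Grey circles and lines are the median and range of the 6 STAG2-proficient A673 libraries, blue squares SK-N-MC and green triangles A4573 (1 library each). Values under 0.003 are drawn on the dotted line. SOX2, SOX12, SOX11 and SOX4 were high in all 3 lines, while SOX9, SOX1, SOX18, TBX5 and TBX20 differed by line.

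Next, expression was compared between STAG2 KO and proficient A673 cells. SOX9, the master factor of cartilage, lost most of its expression, SOX2 fell, and SOX11 and SOX6 rose. A total of 15 members, 12 SOX and 3 TBX, passed the filter on low counts, and these 4 were called at an adjusted p under 0.05 (edgeR's quasi-likelihood test, adjusted for experiment). No TBX gene was called. Over all genes tested, 12.4% were called, 6.67% higher and 5.76% lower. The median log2 fold change was -0.03 over the 15 members and 0.04 over all genes.

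SOX9 lies on chromosome 17 at chr17:72121020-72126416 (GRCh38, plus strand), within the span of SOX9-AS1. In experiment 1 it was at 68.2, 63.9 and 48.2 CPM in proficient libraries and at 1.84 and 2.02 CPM in KO libraries. In experiment 2 the proficient libraries held 28.8, 28 and 17.7 CPM, and KO clones 3, 5 and 2 held 3.25, 0.522 and 2.21 CPM. Every KO library was below every proficient library, in both experiments, although the proficient level itself differed between the experiments. SOX9 fell by 4.16 on the log2 scale (SE 0.436, adjusted p = 0.000238), from a mean of 42.5 CPM ± 20.8 (SD, n = 6) to 1.97 ± 0.978 (SD, n = 5). The fall was 4.95 in experiment 1 alone (log2 change -4.95, adjusted p = 0.00242) and 3.59 in experiment 2 alone (log2 change -3.59, adjusted p = 0.0264). In bulk samples, fewer cells of a type and less RNA per cell cannot be told apart. Of 6 fibroblast markers, 5 also fell in STAG2 KO cells, with a summed level of 705 to 1668 CPM in proficient and 101 to 279.9 CPM in KO libraries and no marker at 0. Their part in the result was not tested.

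SOX11, a SOXC factor of immature neurons on chromosome 2 (chr2:5692384-5701385, plus strand), moved the other way. Proficient libraries held 182, 183 and 151 CPM in experiment 1 and 143, 128 and 95.8 CPM in experiment 2. KO libraries held 257 and 274 CPM in experiment 1 and 184, 175 and 232 CPM in experiment 2. Within each experiment the KO libraries were above the proficient ones, although the groups overlapped when both were pooled. SOX11 rose by 0.70 on the log2 scale (SE 0.122, adjusted p = 0.00395), which held in experiment 1 alone (0.63, adjusted p = 0.0204) and missed the threshold in experiment 2 alone (0.74, adjusted p = 0.0731).

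SOX2 (chr3:181711925-181714436, plus strand, within SOX2-OT) had a lowest, median and highest value of 81.3, 99.0 and 127 CPM in proficient libraries. In KO libraries it was at 81.5 and 89.8 CPM in experiment 1 and 70.6, 68.9 and 58.5 CPM in experiment 2. The groups overlapped, since the parental library of experiment 2 lay below both KO libraries of experiment 1. SOX2 fell by 0.41 on the log2 scale (SE 0.118, adjusted p = 0.0432).

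SOX6, a SOXD factor that acts with SOX9 in cartilage, spans chr11:15966449-16739591 on the minus strand. Its proficient libraries lay between 33.6 and 43.0 CPM with a median of 37.7 CPM. Its KO libraries were at 120.3 and 165 CPM in experiment 1 and at 74.1, 16.1 and 99.5 CPM in experiment 2, where clone 5 was the low one. All KO libraries but that of clone 5 were above every proficient library. SOX6 rose by 1.31 on the log2 scale (SE 0.363, adjusted p = 0.0374), with 1.85 in experiment 1 alone (adjusted p = 0.00384) and 0.84 in experiment 2 alone (adjusted p = 0.380).

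SOX9 and SOX11 passed whichever single library was left out. SOX2 was lost without any of 8 of the 11 libraries (adjusted p up to 0.108), and SOX6 without any of 10, all but KO clone 5 of experiment 2 (adjusted p up to 0.12), and both were lost when the WT clone libraries of experiment 1 were summed. Without KO clone 5 of experiment 2, SOX5 and TBX1 joined the 4 genes, and the share of all genes called in that fit is not given here.

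EWS::FLI1 binds GGAA repeats, so the starts of member genes were searched for adjacent GGAA motifs. RefSeq promoters (GRCh38.p14, from 250 bases before to 50 after a start) were at hand for 27 starts of 20 members, and GGAAGGAA on either strand lay in a single one, a start of SOX6. It is shown because SOX6 rose in STAG2 KO cells, with the reverse complement of GGAAGGAA in capitals (chr11:16356497-16356796, minus strand).
SOX6: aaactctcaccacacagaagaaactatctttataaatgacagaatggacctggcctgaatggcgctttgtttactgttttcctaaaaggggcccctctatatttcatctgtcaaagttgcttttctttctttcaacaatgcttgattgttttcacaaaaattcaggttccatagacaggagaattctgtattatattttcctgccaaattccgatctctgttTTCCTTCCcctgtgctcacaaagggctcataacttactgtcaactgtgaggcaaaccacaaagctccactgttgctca
Among all 35116 promoters in the table, 3.67% held the motif, so a match at 1 of 27 starts is near the background. The 5 SOX6 starts in the table were not told apart by the counts, which are summed over the gene. SOX9 and SOX11 had no entry.

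**Figure D2:**
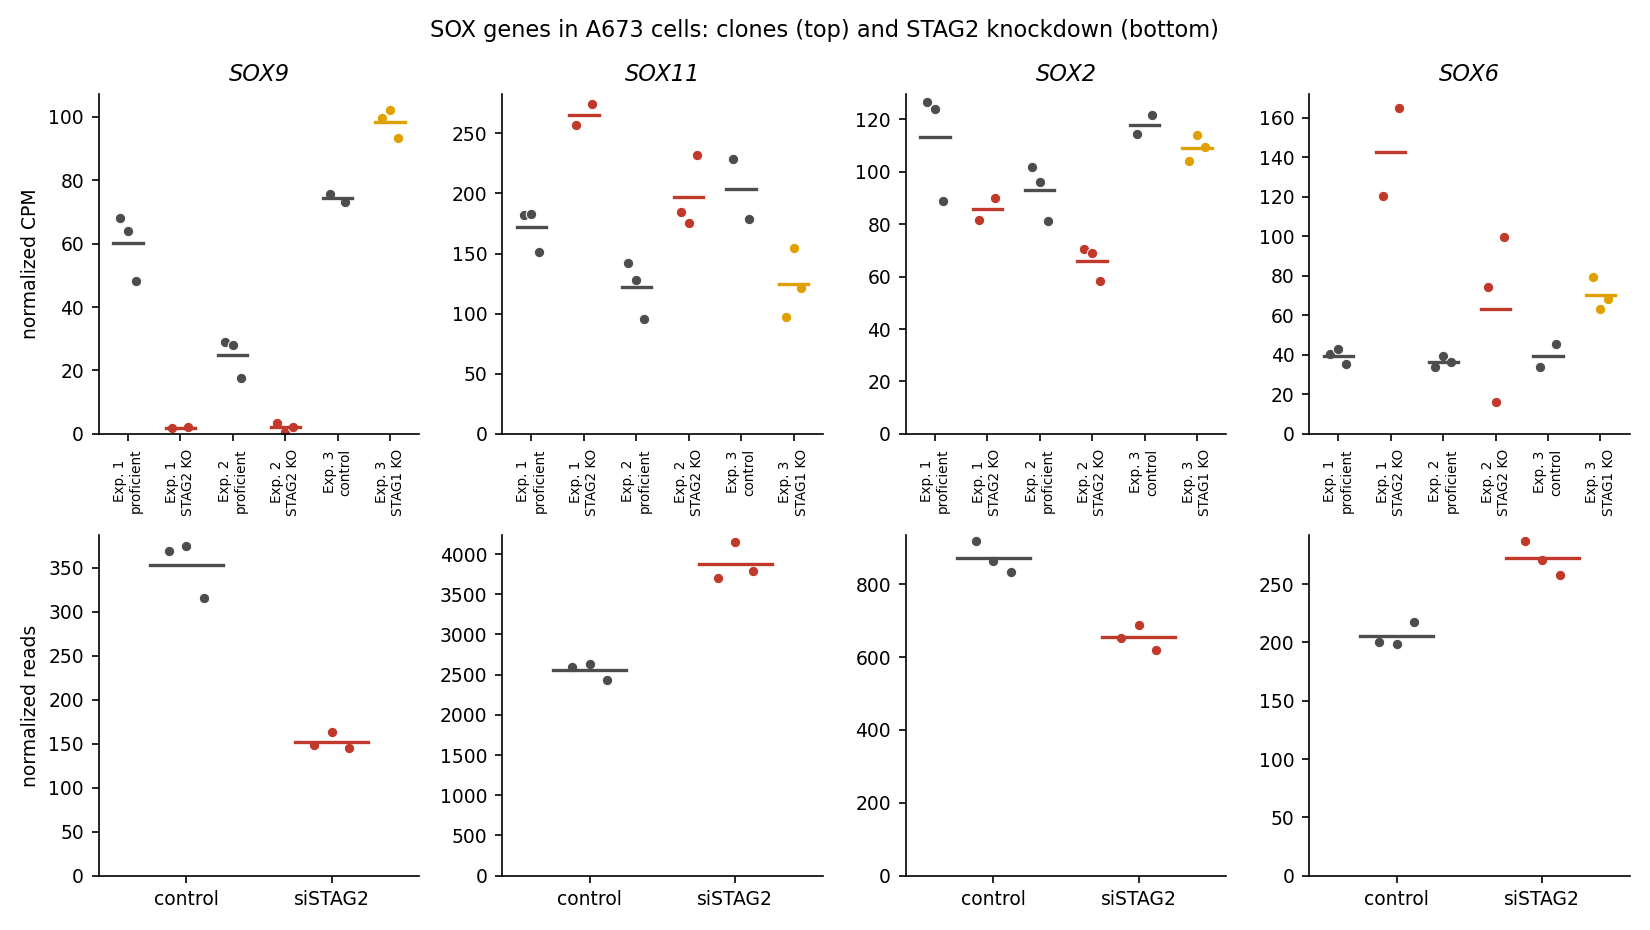
SOX9, SOX11, SOX2 and SOX6 in each library. The upper row gives normalized CPM in clones of experiments 1 to 3 (grey: STAG2-proficient or control, red: STAG2 KO, yellow: STAG1 KO), and the lower row normalized reads in control and siSTAG2 libraries. Points are libraries and bars group means, with all axes starting at 0. SOX9 was at 0.522 to 3.25 CPM in STAG2 KO and at 93.4 to 102 CPM in STAG1 KO libraries.

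Transient loss of STAG2 was then examined. STAG2 was at 992 to 1090 normalized reads in control and 144 to 179.9 in siSTAG2 libraries. A total of 13 members, 10 SOX and 3 TBX, reached the mean of 10 normalized reads required for testing, and 8 were called by limma on log2(value + 1), where 20.5% of all genes were called, 9.54% higher and 11% lower. SOX1, SOX4, SOX6, SOX8 and SOX11 rose, SOX2, SOX9 and SOX12 fell, and TBX1, TBX18 and TBX19 were not called. In each of these 8 genes the 3 siSTAG2 libraries lay apart from the 3 controls, as they also did at SOX5, which was not called. The 8 were picked by a test on the same values, and the share of all genes lying apart is not given here. The separation is thus no further evidence. The median log2 fold change was 0.14 over the 13 members and 0.01 over all genes.

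SOX9 was at 369, 316 and 375 normalized reads in controls and at 163, 148 and 145 in siSTAG2 libraries. It fell by 1.21 on the log2 scale (SE 0.0987, adjusted p = 6.80e-10). The 4 fibroblast markers tested fell as well, COL1A2 from a mean of 2599 to 1020.2 normalized reads, and their part in the SOX9 result was not tested. SOX11 was at 2600.1, 2432 and 2637 normalized reads in controls and at 4147, 3709 and 3789 in siSTAG2 libraries, a rise of 0.60 (SE 0.0584, adjusted p = 1.55e-08). SOX2 was at 919, 834 and 865 against 689, 652 and 620.2 normalized reads and fell by 0.42 (SE 0.0682, adjusted p = 6.11e-05). SOX6 was at 200.2, 217 and 199 against 271, 287 and 258 normalized reads and rose by 0.40 (SE 0.0939, adjusted p = 0.00275).

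Further members were called in the knockdown. SOX12, a SOXC gene, was at 1288, 1332 and 1288 normalized reads in controls and at 1065, 1080.1 and 1040.4 in siSTAG2 libraries (log2 change -0.29, SE 0.0595, adjusted p = 0.000701). SOX4, the third SOXC gene, rose by 0.23 (SE 0.0565, adjusted p = 0.00366), from 2622 to 2823 normalized reads in controls to 3104 to 3328. SOX1 rose by 0.43 (SE 0.129, adjusted p = 0.0172), and SOX8 by 0.40 (SE 0.137, adjusted p = 0.0381). The SOX8 call was lost without any of the 6 libraries (adjusted p up to 0.143), and the SOX1 call without control 2, siSTAG2 1 or siSTAG2 3 (adjusted p up to 0.0806).

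Experiment 4 shares no library with experiments 1 and 2. The 4 members called in STAG2 KO cells were all called in the same direction after knockdown, which is 100% of the KO calls and 50% of the knockdown calls. Over the 11155 genes tested in both, 661 were called in the same direction, 46.9% of the KO calls and 27.7% of the knockdown calls. Of the 13 members tested in both, 9 had fold changes of the same sign (69.2%, against 67.6% of all genes), and SOX8, TBX1, TBX18 and TBX19 did not. SOX4 had a log2 fold change of 0.10 in KO cells (SE 0.171, adjusted p = 0.761) and SOX12 of -0.20 (SE 0.0873, adjusted p = 0.162), neither of them called.

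STAG1 KO was compared to ask whether the paralog has the same effects. None of 17 tested members was called (edgeR's quasi-likelihood test), where 5.27% of all genes were called, 2.77% higher and 2.50% lower. By unadjusted p under 0.05 there were 9 (SOX4, SOX6, SOX8, SOX9, SOX11, SOX12, TBX1, TBX6 and TBX18), against 24.9% of all genes, and DESeq2 called 7 of 27 members, against 1935 of 20397 genes. Without the library numbered 1, whose STAG1 level was that of the controls, SOX5, SOX9 and TBX1 were called. The share of all genes called in that fit is not given here, so these calls are not compared with other genes. SOX9 was at 75.6 and 73.2 CPM in controls and at 99.7, 102 and 93.4 CPM in STAG1 KO libraries, apart from the controls and above them (log2 fold change 0.40, SE 0.0846, adjusted p = 0.0521). SOX11 was at 228 and 179 CPM in controls and at 97.6, 155 and 121 CPM in STAG1 KO libraries, apart and below (log2 fold change -0.71, SE 0.205, adjusted p = 0.102). TBX1 was at 24 and 19.2 CPM against 4.86, 8.45 and 10.4 CPM (log2 fold change -1.45, SE 0.314, adjusted p = 0.0563).

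In a direct test of the effect of STAG2 KO minus that of STAG1 KO over the libraries of experiments 1 to 3, 2 of 17 members differed, where 6.11% of all genes did, 2.36% higher and 3.75% lower. For SOX9 the difference was -4.60 on the log2 scale (SE 0.588, adjusted p = 0.000564), and for SOX11 it was 1.37 (SE 0.238, adjusted p = 0.00397). SOX9 held whichever library was left out. SOX11 was lost without the parental library of experiment 3 (difference 1.2, adjusted p = 0.0529). For SOX6 the difference was 0.45 (SE 0.597, adjusted p = 0.777) and for SOX2 -0.34 (SE 0.180, adjusted p = 0.336), which leaves differences of either sign possible. Summed fibroblast markers were at 1644 and 2019 CPM in the controls of experiment 3 and at 2832 to 3272 CPM in STAG1 KO libraries, and their part in these differences was not tested.

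Genes that SOX9 and its relatives are known to activate were read from lists. Of 15 cartilage genes driven by SOX9, 7 were tested in STAG2 KO cells. COL2A1, the main collagen of cartilage, fell from a mean of 3.49 CPM to 0.329 (log2 change -3.32, adjusted p = 0.000930) and CNMD, encoding chondromodulin, from 1.81 to 0.128 CPM (log2 change -3.60, adjusted p = 0.01). HAPLN1, a link protein of the cartilage matrix, rose from 0.804 to 13.1 CPM (log2 change 4.06, adjusted p = 1.84e-05). After knockdown 4 were tested and CNMD fell by 3.06 on the log2 scale, from a mean of 31.0 to 3.08 normalized reads (adjusted p = 6.71e-06). In STAG1 KO cells COL2A1 rose by 1.59, from 1.73 to 5.20 CPM (adjusted p = 0.0366), and HAPLN1 fell by 3.15, from 2.04 to 0.222 CPM (adjusted p = 0.0426), while COL9A3 fell by 0.94 (adjusted p = 0.0314). In STAG2 KO cells 1 of the 7 was thus called higher and 2 lower, where 12.4% of all genes were called, and the median log2 fold change was -0.18. Over all genes, 20.5% were called in the knockdown and 5.27% in STAG1 KO cells.

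Of 15 genes linked to SOX10 in neural crest and glia, 7 were tested in STAG2 KO cells. Of these, 1 rose and 2 fell, where 12.4% of all genes were called. PMP22, a myelin protein, fell from 1.18 to 0.252 CPM (log2 change -2.23, adjusted p = 0.0166) and rose in STAG1 KO cells from 0.440 to 7.38 CPM (adjusted p = 0.0412). RET, a receptor tyrosine kinase, fell from a mean of 213 to 12.1 CPM (log2 change -4.14, adjusted p = 0.000148) and, after knockdown, from 333 to 131 normalized reads (log2 change -1.34, adjusted p = 1.77e-10). SOX10 itself had 0 counts throughout. In the list of 15 neural progenitor genes linked to SOX2, 7 were tested in STAG2 KO cells. Of these, 1 was called higher and 2 lower, against the same 12.4% of all genes. NES, encoding the filament protein nestin, fell from 155 to 9.30 CPM (log2 change -4.01, adjusted p = 6.25e-05) and PROM1 by 2.20 (adjusted p = 0.0144), while POU3F2, a partner of SOX factors in neural cells, rose by 1.58 (adjusted p = 0.0102). The knockdown called 4 of 8, where 20.5% of all genes were called, with NES lower (-0.89) and SIX3 (1.25), LIN28B (0.54) and POU3F2 (0.38) higher. In STAG1 KO cells NES rose by 1.62, from 65.4 to 201 CPM (adjusted p = 0.02), LIN28B rose by 1.56 and POU3F2 fell by 1.63. Of the 9 tested there, 2 thus rose and 1 fell, where 5.27% of all genes were called.

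Turning to PRC2, KO of EZH2 or SUZ12 raised members that were silent or nearly so in control cells, among them SOX17, SOX3, TBX3, TBX5 and TBX20. In both comparisons 22 members, 14 SOX and 8 TBX, were tested, some of which passed the filter only through the KO libraries, so that the counts below do not describe all members. In EZH2 KO cells 8 rose and 0 fell (SOX3, SOX17, SOX18, TBX3, TBX5, TBX15, TBX18 and TBX20), where 15.7% of all genes were called, 12% higher and 3.69% lower. In SUZ12 KO cells 8 rose (SOX2, SOX3, SOX17, SOX18, TBX3, TBX5, TBX15 and TBX20) and SOX11 and SOX13 fell, where 20.6% of all genes were called, 14.7% higher and 5.87% lower. The median log2 fold change of the tested members was 0.53 in EZH2 KO and 0.48 in SUZ12 KO cells, against 0.04 and 0.01 over all genes. These medians also include the members that passed the filter only through the KO libraries. They therefore do not describe all members and do not show a shift of the families. Both comparisons use the same 3 control libraries.

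SOX17, an endoderm and endothelial factor, and TBX20 had 0 counts in the 3 control libraries. SOX17 was at 1.48, 1.09 and 2.47 CPM in EZH2 KO clones 1 to 3 and at 1.26, 4.69 and 6.12 CPM in SUZ12 KO clones, which is at least 29.2-fold and at least 68.0-fold higher than 3 counts over the control group. TBX20 (chr7:35202430-35254100, minus strand) was at 2.06, 2.39 and 2.37 CPM in EZH2 KO and at 2.04, 2.25 and 2.36 CPM in SUZ12 KO clones, at least 38.9-fold and at least 37.9-fold higher. All 6 KO clones thus held TBX20 at nearly the same level. Both genes were called in each KO whichever library was left out (adjusted p up to 0.0189 for SOX17 and 0.00233 for TBX20).

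TBX3 and TBX5 are neighbours on chromosome 12 with start positions 316344 bases apart (chr12:114670255-114684175 and chr12:114353911-114408442, both minus strand). TBX3, a factor of limb, mammary gland and cardiac conduction, was at 0.0566, 0.128 and 0.388 CPM in controls, at 2.78, 0.922 and 8.96 CPM in EZH2 KO and at 12.8, 29.3 and 12.3 CPM in SUZ12 KO clones. It rose by 4.48 (SE 1.04, adjusted p = 0.0136) and 6.57 (SE 1.09, adjusted p = 0.00154) on the log2 scale. TBX5 was at 0, 0 and 0.111 CPM in controls, at 0.431, 0.109 and 2.18 CPM in EZH2 KO and at 10.5, 5.23 and 5.10 CPM in SUZ12 KO clones. EZH2 KO clone 2 lay within the controls at TBX5, and every SUZ12 KO clone lay above them. The ratio to the controls, which held 2 counts of TBX5, was 24.2 (95% counting interval 6.41 to 205) in EZH2 KO and 179 (49.1 to 1479) in SUZ12 KO cells. In EZH2 KO cells 46 of the 57 counts came from clone 3, and without that clone the log2 fold change was 2.71 instead of 4.42 and was no longer called (adjusted p = 0.148 by edgeR). That call was also lost without any of the 3 controls, EZH2 KO clone 1 or any of the 3 SUZ12 KO clones, which share the fit (adjusted p up to 0.149 by edgeR). TBX5-AS1 and TBX3-AS1 overlap 7.02% and 3.29% of the exons of TBX5 and TBX3 on the opposite strand, and the non-directional libraries cannot tell them apart. TBX5-AS1 was at 0 in the controls and rose in SUZ12 KO cells to a mean of 1.55 CPM (adjusted p = 0.0124).

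SOX3, the SOXB1 gene on the X chromosome, was at 0.0566, 0 and 0.0554 CPM in controls, at 0.479, 0.543 and 0.190 CPM in EZH2 KO and at 0.679, 0.586 and 0.376 CPM in SUZ12 KO clones. It was apart from the controls in both, on 24 and 34 counts against 2, a ratio of 10.2 (2.53 to 89.1) and 14.2 (3.65 to 122). SOX18 was at 0.566, 0.510 and 0.166 CPM in controls, 5.17, 2.28 and 4.74 CPM in EZH2 KO and 3.98, 5.41 and 3.06 CPM in SUZ12 KO clones, and rose by 3.37 (SE 0.842, adjusted p = 0.0197) and 3.38 (SE 0.843, adjusted p = 0.0149). TBX15, a factor of skeletal and muscle development, was at 0.113, 0.255 and 0.111 CPM in controls, 0.958, 1.25 and 0.948 CPM in EZH2 KO and 0.630, 0.496 and 0.912 CPM in SUZ12 KO clones, and rose by 2.77 (SE 0.679, adjusted p = 0.0180) and 2.13 (SE 0.686, adjusted p = 0.0468).

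TBX18, a factor of the epicardium and ureter, was not silent in control cells. It was at 11.7, 10.4 and 15.7 CPM in controls, 37.6, 45.6 and 25.8 CPM in EZH2 KO and 17.3, 15 and 17.4 CPM in SUZ12 KO clones. It rose in EZH2 KO cells by 1.61 (SE 0.463, adjusted p = 0.0359) and had a log2 fold change of 0.46 in SUZ12 KO cells (SE 0.457, adjusted p = 0.501). SOX2 was at 102, 96.2 and 81.3 CPM in controls, 126, 118 and 111 CPM in EZH2 KO and 112, 145 and 109.6 CPM in SUZ12 KO clones, with a log2 fold change of 0.43 (SE 0.142, adjusted p = 0.0616) and 0.47 (SE 0.142, adjusted p = 0.0378). SOX11 was at 143, 128 and 95.8 CPM in controls, 78.5, 78.9 and 93.4 CPM in EZH2 KO and 82.8, 67.7 and 84.1 CPM in SUZ12 KO clones, with -0.46 (SE 0.166, adjusted p = 0.0841) and -0.57 (SE 0.166, adjusted p = 0.0301). At both genes every PRC2 KO clone lay apart from the controls. SOX13, a SOXD gene, was at 12, 8.86 and 13.5 CPM in controls and fell to 7.03, 5.72 and 4.4 CPM in SUZ12 KO clones (log2 change -0.93, SE 0.286, adjusted p = 0.0383), with 7.71, 8.84 and 8.30 CPM in EZH2 KO clones (log2 change -0.38, SE 0.283, adjusted p = 0.390).

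These calls depended on single libraries to different degrees. In EZH2 KO cells 2 members were called without the library of WT clone replicate 1 (SOX17 and TBX20), 3 without WT clone replicate 2, 4 without the parental library, 4 without EZH2 KO clone 1 and 5 without EZH2 KO clone 2, against 10 without STAG2 KO clone 5, which shares the fit. In SUZ12 KO cells there were 6 without any of the controls or without SUZ12 KO clone 2, always including SOX3, SOX17, TBX3, TBX5 and TBX20. The share of all genes called without each library is not given here.

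PRC2 sits mostly at promoters dense in CG dinucleotides, and 4 promoters of members that rose are shown with each CG in capitals, SOX2 as a gene already active in control cells and SOX3, TBX5 and TBX20 as genes at or near 0 counts there. SOX2 is at chr3:181711675-181711974 (plus strand), SOX3 at chrX:140505020-140505319, TBX5 at chr12:114408393-114408692 and TBX20 at chr7:35254051-35254350 (minus strand).
SOX2: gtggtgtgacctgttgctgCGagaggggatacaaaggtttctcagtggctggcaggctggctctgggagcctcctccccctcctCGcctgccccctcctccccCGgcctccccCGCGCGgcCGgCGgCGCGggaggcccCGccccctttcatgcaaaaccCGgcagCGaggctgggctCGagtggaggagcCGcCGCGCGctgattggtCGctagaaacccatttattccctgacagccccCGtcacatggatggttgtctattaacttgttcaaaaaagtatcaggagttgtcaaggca
SOX3: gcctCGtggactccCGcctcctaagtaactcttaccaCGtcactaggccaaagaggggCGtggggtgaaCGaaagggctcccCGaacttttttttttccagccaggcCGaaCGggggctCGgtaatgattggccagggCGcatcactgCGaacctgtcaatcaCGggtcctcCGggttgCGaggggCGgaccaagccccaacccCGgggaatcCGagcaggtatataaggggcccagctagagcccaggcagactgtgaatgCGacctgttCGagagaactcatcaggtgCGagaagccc
TBX5: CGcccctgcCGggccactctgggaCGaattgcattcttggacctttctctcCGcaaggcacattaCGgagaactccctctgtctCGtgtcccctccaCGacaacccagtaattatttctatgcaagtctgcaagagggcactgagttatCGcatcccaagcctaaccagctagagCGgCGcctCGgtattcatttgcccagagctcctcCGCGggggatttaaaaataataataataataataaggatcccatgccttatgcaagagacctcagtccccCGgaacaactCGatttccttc
TBX20: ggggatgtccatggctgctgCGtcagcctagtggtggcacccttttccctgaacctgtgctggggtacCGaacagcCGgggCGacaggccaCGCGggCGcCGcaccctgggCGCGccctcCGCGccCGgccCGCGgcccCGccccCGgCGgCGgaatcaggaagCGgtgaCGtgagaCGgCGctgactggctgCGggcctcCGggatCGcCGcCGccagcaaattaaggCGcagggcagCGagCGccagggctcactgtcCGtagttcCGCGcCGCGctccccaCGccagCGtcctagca
The TBX20 window held 38 CG, more than 90.1% of all promoters, the SOX2 and SOX3 windows 20 each and the TBX5 window 15, while the other TBX5 start in the table had 21 and that of TBX18, which rose in EZH2 KO cells, 21. The median was 14 over all 35116 promoters (0 to 77) and 18 over the 27 member starts (0 to 54). The SOX motif ACAAT lay in 8 of the 27 starts (29.6%, against 27.4% of all promoters), 5 of them at SOX6, and the T-box motif AGGTGTGA in 0 of 27, against 0.98% of all promoters, both strands searched. SOX9, SOX11, SOX17, SOX18, TBX3 and TBX15 had no entry.

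**Figure D3:**
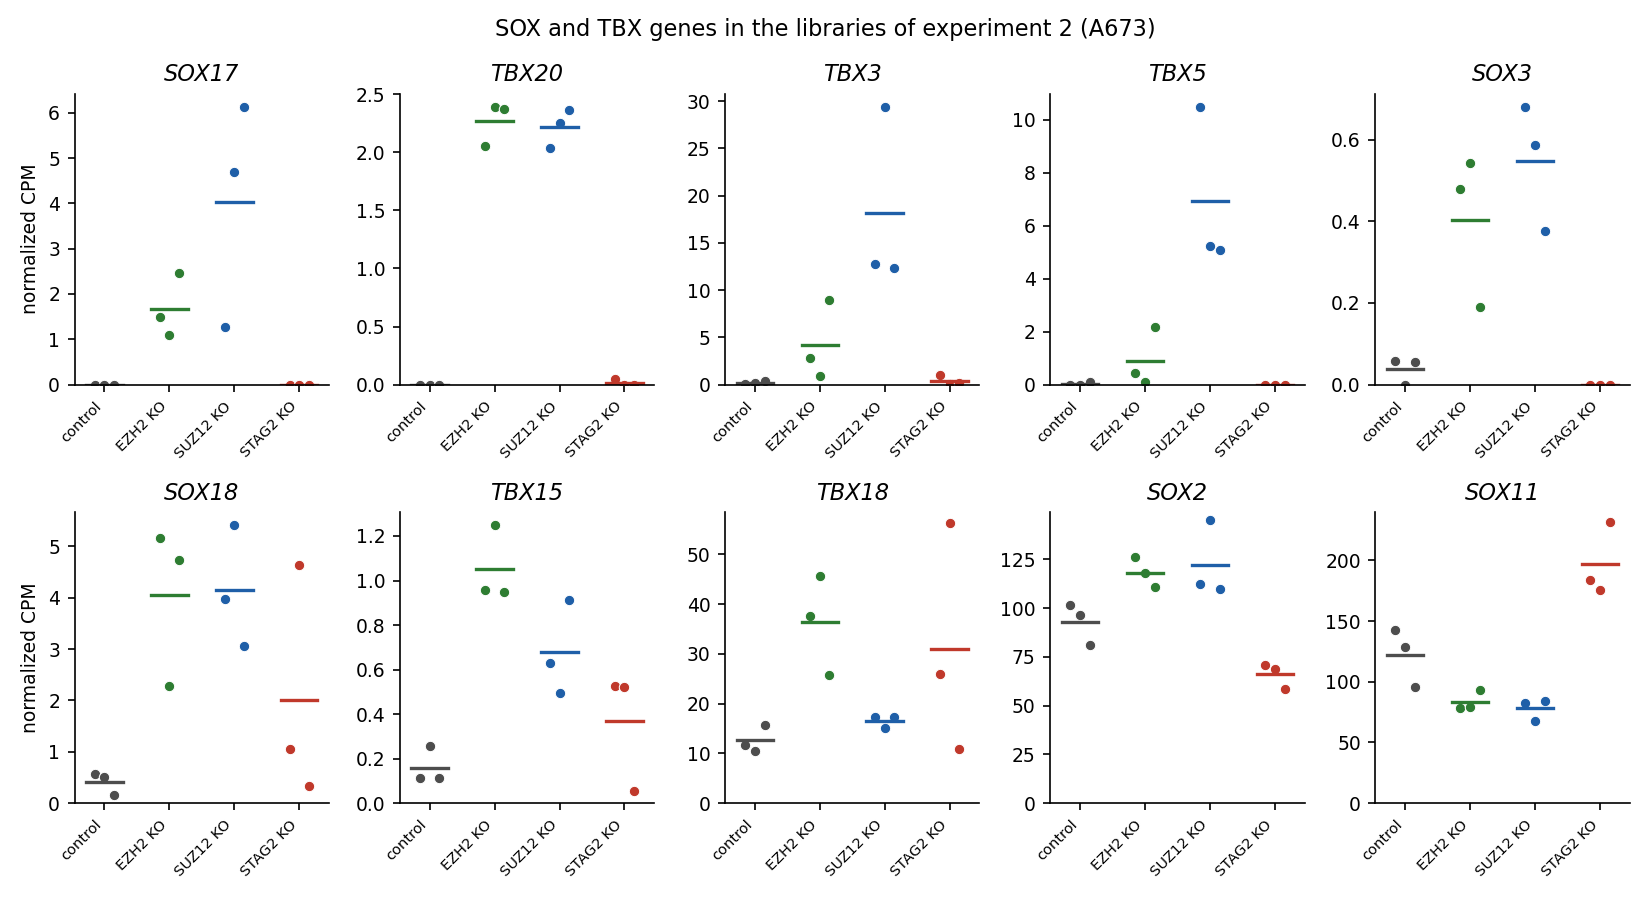
Normalized CPM of 10 members in the libraries of experiment 2, by group (grey: WT clone and parental controls, green: EZH2 KO, blue: SUZ12 KO, red: STAG2 KO). Points are libraries and bars group means, and axes start at 0 with a scale for each gene. SOX17 and TBX20 had 0 counts in the controls and were at 1.09 to 6.12 and 2.04 to 2.39 CPM in the PRC2 KO clones.

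In the direct comparison of SUZ12 KO with EZH2 KO clones, 0 of 22 members were called by edgeR and 0 by DESeq2. Of all genes tested, 1 (0.00661%) was called by edgeR, EZH2 itself (log2 difference 2.32, adjusted p = 0.00186). SUZ12, the gene edited in SUZ12 KO clones, missed the threshold (log2 difference -1.73, adjusted p = 0.0663 by edgeR). The comparison can thus miss large differences, and 0 calls do not show equal levels of the members. By unadjusted p under 0.05 (edgeR) there were 3, TBX3 with a log2 difference of 2.09 (SE 0.823), TBX5 with 2.91 (SE 0.910) and TBX18 with -1.15 (SE 0.456), all with an adjusted p of 0.999, where 4.16% of all genes were under that p.

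PRC2 KO was also set against STAG2 KO within experiment 2. Of 22 members, 8 were called, where 29.7% of all genes were (13.8% with more and 15.9% with less RNA in STAG2 KO cells). At or near 0 counts in STAG2 KO and control libraries, SOX3, SOX17, TBX5 and TBX20 are among the members that passed the filter only through PRC2 KO clones. Their calls restate their rise in PRC2 KO cells, and the count does not describe all members. SOX11 was higher in STAG2 KO cells by 1.27 on the log2 scale (SE 0.138, adjusted p = 8.67e-05), with 175 to 232 CPM against 67.7 to 93.4 CPM. SOX2 was lower by 0.88 (log2 difference -0.88, SE 0.128, adjusted p = 0.000541), at 58.5 to 70.6 against 109.6 to 145 CPM, and SOX9 by 3.64 (log2 difference -3.64, SE 0.488, adjusted p = 0.000336), at 0.522 to 3.25 against 17.1 to 36.8 CPM. SOX17, SOX3 and TBX5 had 0 counts in the 3 STAG2 KO libraries of experiment 2, and were at least 53.5-fold, 8.94-fold and 74.6-fold higher in PRC2 KO clones. TBX20 had 1 count against 273, a ratio of 126 (95% counting interval 22.5 to 5004), and TBX3 was lower in STAG2 KO cells by 4.36 (log2 difference -4.36, SE 0.921, adjusted p = 0.00451), with overlapping groups. These 8 held whichever library was left out.

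Target genes of the members that rose in PRC2 KO cells were counted from lists. Of 16 heart and limb genes under T-box control, 11 were tested and 5 rose in each PRC2 KO, with 0 lower, where 12% of all genes rose in EZH2 KO and 14.7% in SUZ12 KO cells. Some genes of this and the following lists passed the filter only through the KO libraries, so their counts do not describe the lists as a whole. BMP2, a growth factor, rose from a mean of 0.0779 to 4.80 CPM in EZH2 KO and 11.2 CPM in SUZ12 KO cells (adjusted p = 0.00865 and 0.00251). GJA5, encoding a connexin of the atria, was at 0 in controls and at 1.83 and 3.26 CPM in the KO clones (adjusted p = 0.00659 and 0.00268). Of 13 endothelial and endoderm genes linked to SOX17 and SOX18, 8 were tested, 4 rose in each PRC2 KO, and 2 fell in SUZ12 KO cells (FOXA1 and HHEX). GATA4, an endoderm and heart factor, rose from a mean of 0.0213 CPM to 47.6 CPM ± 14.6 (SD, n = 3) in EZH2 KO and 73.8 ± 4.38 (SD, n = 3) in SUZ12 KO cells (adjusted p = 2.67e-06 and 1.37e-06). VCAM1, an endothelial adhesion molecule, fell in STAG2 KO cells (log2 change -2.67, adjusted p = 0.0231) and after knockdown (-1.71, adjusted p = 5.98e-06). Of the SOX17 and SOX18 list 4 genes were tested in STAG2 KO cells and 3 in the knockdown, with 1 lower and 0 higher in each. Over all genes, 12.4% were called in STAG2 KO cells and 20.5% in the knockdown. Of 5 endothelial markers 3 were tested in PRC2 KO cells. PECAM1 rose in both KOs, to means of 1.72 and 2.14 CPM, and EMCN fell, with summed markers at 24.6 to 50 CPM in the controls and at 4.56 to 18.6 CPM in PRC2 KO clones. Of 6 fibroblast markers COL1A2 fell and PDGFRA rose in both KOs. Their part in these results was not tested.

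Cartilage and neural lists changed in PRC2 KO cells as well. SOX9 was not called in either (log2 fold change -0.19, adjusted p = 0.801, and 0.31, adjusted p = 0.651). Of 10 cartilage genes that passed the filter, some only through the KO libraries, 6 rose in EZH2 KO and 7 in SUZ12 KO cells, CNMD from a mean of 1.28 to 15.4 and 12.9 CPM and COL9A2 from 5.62 to 22.7 and 21.0 CPM. Over all genes tested, 12% rose in EZH2 KO and 14.7% in SUZ12 KO cells. Of 9 neural progenitor genes tested, POU3F3, SIX3, PAX6 and POU3F2 rose in both KOs and PROM1 fell. Of 8 tested genes of the SOX10 list, 1 was called higher and 0 lower in each PRC2 KO, against the same shares of all genes. MITF, a melanocyte factor regulated by SOX10, rose by 3.55 and 3.81 on the log2 scale to means of 1.78 and 2.15 CPM. Among T-box genes named otherwise, MGA was not called in any comparison, and EOMES, TBR1 and TBXT were too low to be tested. SOX21-AS1, the antisense RNA of SOX21, was at 0 in the controls and rose in both PRC2 KOs to 0.369 and 0.799 CPM, and SOX21 itself was at 0 counts in controls with 11 and 27 counts in the KO clones, below the filter. TBX4, a hindlimb factor and neighbour of TBX2, was also below the filter, with 29 counts in the 3 SUZ12 KO clones against 1 in the controls, a ratio of 24.3 (95% counting interval 4.02 to 991), and every SUZ12 KO clone was above every control. In EZH2 KO clones it had 5 counts, a ratio of 4.25 (0.476 to 201).

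**Figure D4:**
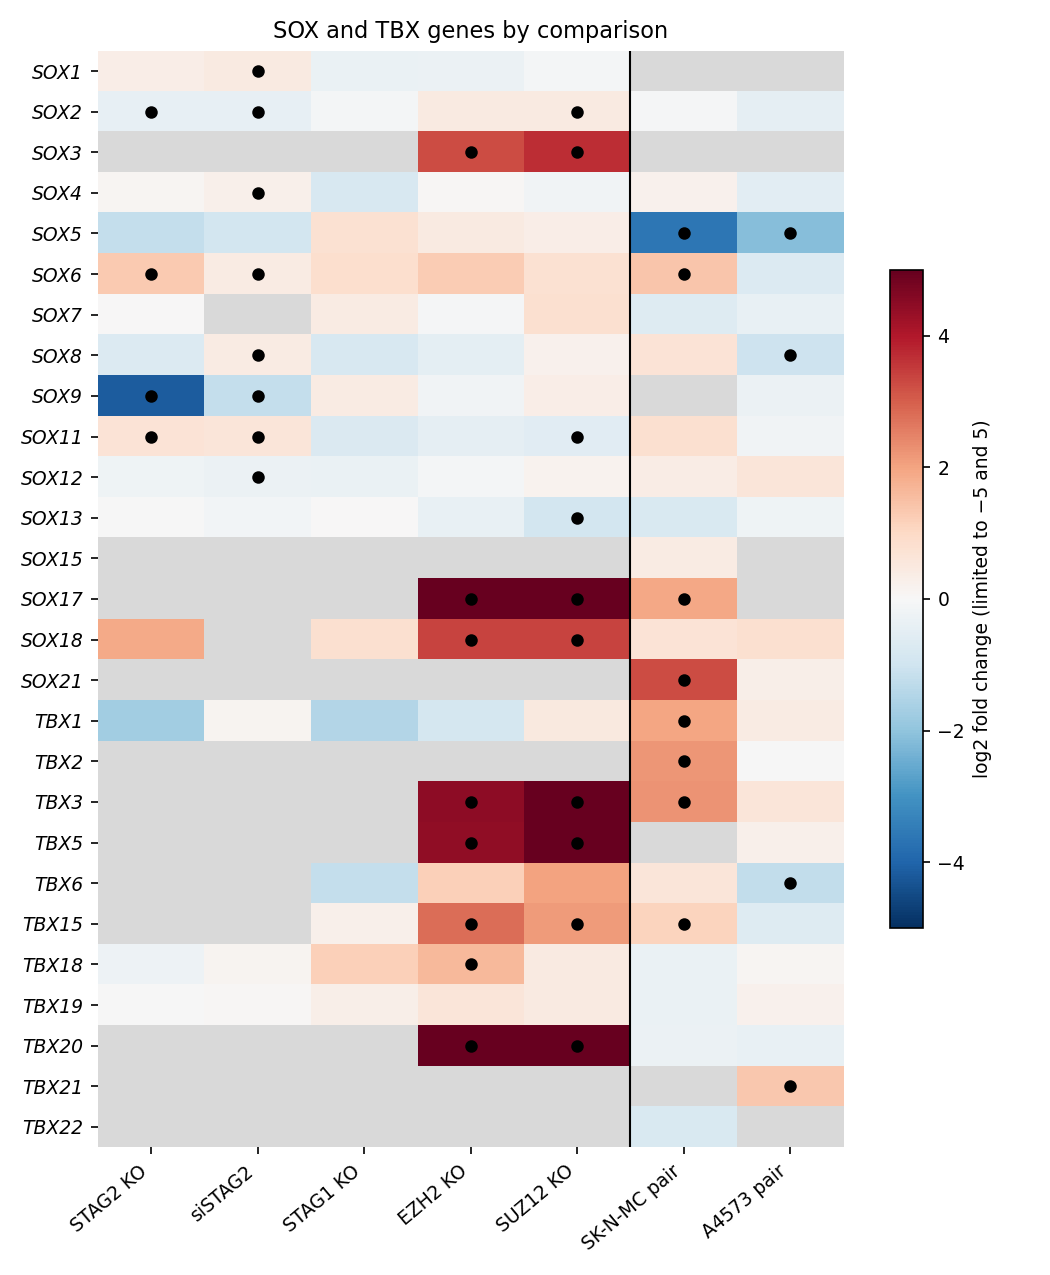
Log2 fold change of members by comparison (color, limited to -5 and 5; grey: not tested). Dots mark an adjusted p under 0.05 or, right of the line, a difference past 2-fold in an isogenic pair (without over with STAG2), which has no test. For SOX17 and TBX20 in PRC2 KO cells, whose controls had 0 counts, the color depends on the small count added by the fit. The 4 members called in STAG2 KO cells have the same direction under siSTAG2.

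Finally, the isogenic pairs were read without a test, since each arm is 1 library. Values are log2 ratios without over with STAG2, and past 2-fold stands in for a call. STAG2 was at 292.8 CPM in SK-N-MC and 184 CPM in its KO, and at 86.9 CPM in A4573 STAG2 KI and 34.1 CPM in A4573 WT. In SK-N-MC 22 members had at least 10 counts in the pair, and 8 were past 2-fold, 7 higher and 1 lower without STAG2, where 21.6% of all genes were past 2-fold, 10.2% higher and 11.4% lower. In A4573 also 22 were compared and 4 were past 2-fold, 1 higher and 3 lower, where 21.8% of all genes were, 7.76% higher and 14.1% lower. The median over members was 0.51 in SK-N-MC and -0.19 in A4573, against -0.01 and 0.00146 over all genes.

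SOX5, a SOXD gene, was past 2-fold lower without STAG2 in both pairs, with 7 counts against 116 in SK-N-MC (log2 ratio -3.61) and 54 against 251 in A4573 (log2 ratio -2.12). The ratio of CPM was 0.0651 (95% counting interval 0.0256 to 0.138) and 0.224 (0.164 to 0.302). In A673 cells SOX5 had a log2 fold change of -1.19 in STAG2 KO (SE 0.469, adjusted p = 0.127) and -0.92 after knockdown (SE 0.425, adjusted p = 0.134). Its KO libraries were at 2.88, 1.24, 2.20, 5.22 and 3.59 CPM and its proficient libraries at 3.21 to 12.4 CPM with a median of 7.03 CPM, so the groups overlapped.

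TBX3 was at 24.8 CPM without and 5.19 CPM with STAG2 in SK-N-MC, on 756 and 171 counts (log2 ratio 2.24), and at 7.17 and 4.74 CPM in A4573 (log2 ratio 0.59). TBX1 was at 29.2 and 7.47 CPM in SK-N-MC (log2 ratio 1.96) and at 44 and 33.3 CPM in A4573 (log2 ratio 0.40). SOX17 had 59 and 15 counts in SK-N-MC (log2 ratio 1.94) and 0 in both A4573 libraries, and SOX21, a SOXB2 gene, had 26 counts and 1 count in SK-N-MC, a ratio of 28.1 (4.61 to 1150). Past 2-fold higher in SK-N-MC without STAG2 were also TBX2 (log2 ratio 2.20, 41 against 8 counts), TBX15 (1.10, 28 against 13 counts) and SOX6 (1.39, 2612 against 1071 counts). All 7 were higher in the same single KO library, which also differed from its partner in markers of other cell types. Of 5 immune markers PTPRC was at 58.2 CPM without and 3 CPM with STAG2, and of 5 epithelial markers EPCAM was at 9.36 and 0.819 CPM. Of 6 fibroblast markers DCN was at 17.4 and 1.52 CPM and COL1A2 at 17.4 and 524 CPM. Their part in these ratios was not tested.

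In A4573 SOX8 (log2 ratio -1.05, 641 against 1389 counts) and TBX6, a factor of paraxial mesoderm (-1.24, 37 against 94 counts), were past 2-fold lower without STAG2. TBX21, which encodes the lymphocyte factor T-bet, was higher on 15 against 5 counts (1.33, ratio interval 1.08 to 11). SOX9, which fell most in A673, had 641 counts without and 819 with STAG2 in A4573 (log2 ratio -0.29, ratio 0.816, 0.735 to 0.906) and 0 in SK-N-MC. SOX11 had a log2 ratio of 0.78 in SK-N-MC, at 201 and 117 CPM, and -0.18 in A4573, at 185 and 209 CPM. SOX2 had -0.06 in SK-N-MC and -0.45 in A4573, at 258 CPM without and 353 CPM with STAG2. These intervals cover counting error only.

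**Figure D5:**
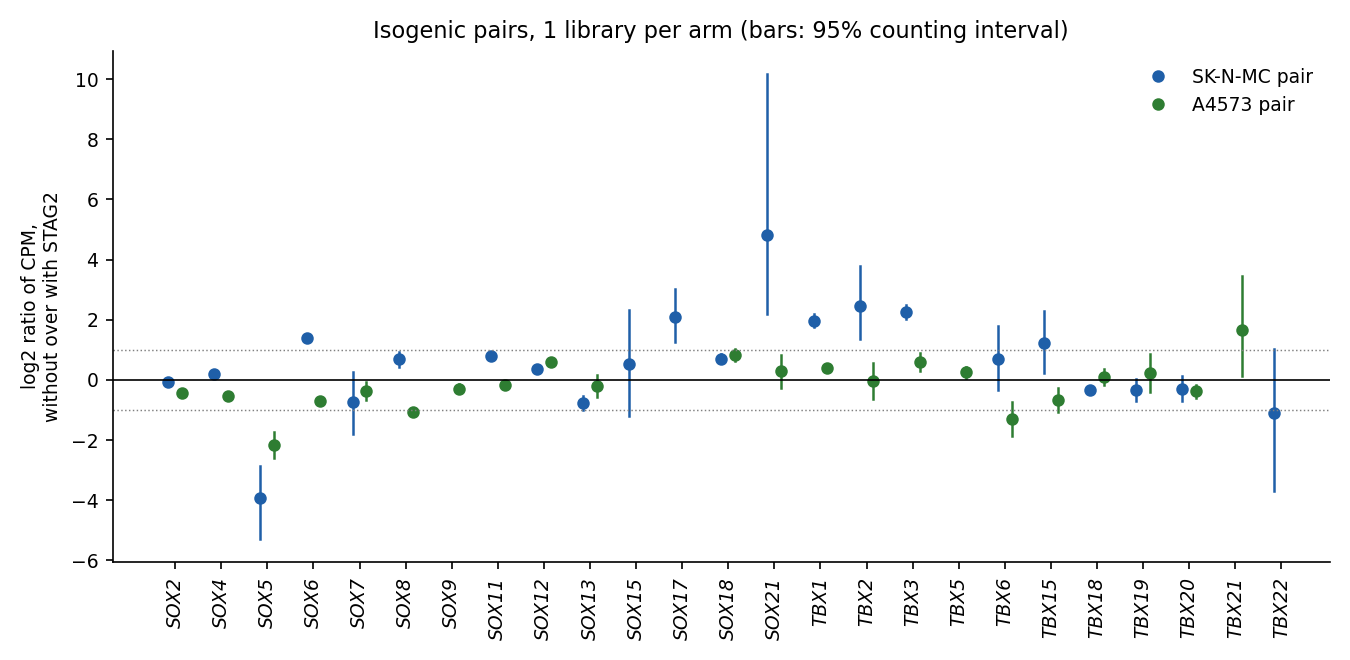
Log2 ratio of CPM without over with STAG2 for members with at least 10 counts in a pair (blue: SK-N-MC, green: A4573, 1 library per arm). Bars are 95% counting intervals, the solid line is a ratio of 1 and dotted lines mark 2-fold. Points are plain ratios without the prior count of 2 used for the log2 ratios in the text, so low genes lie farther from 0 here. SOX5 lay below the lower dotted line in both pairs, at ratios of 0.0651 and 0.224.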

How the data were processed

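RNA-seq was analysed from the deposited tables. Per the labels and methods, the authors aligned reads of non-directional oligo-dT libraries to hg38 (per the submitters' processing notes with SAMtools 0.1.16, TopHat2 2.0.0 and also Bowtie 0.12.7), and the counting program is not given in the sources used here. The deposited count tables hold raw read counts per gene symbol. The deposited knockdown table holds a signal, counts divided by a factor per library, and 100% of its values were whole reads (tolerance 0.001) after recovery.

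Counts were tested in R 4.3.3 with edgeR 4.0.16 (TMM, filterByExpr, quasi-likelihood test) on all genes, with experiment as a term in the STAG2 comparisons and 12 libraries in a single fit for PRC2. Knockdown values were tested with limma 3.58.1 on log2(value + 1) for genes with a mean of at least 10. Calls are at a Benjamini-Hochberg adjusted p under 0.05 over all genes tested. Isogenic pairs were given as log2 CPM ratios (prior count 2, at least 10 counts). Folds against a group at 0 use a floor of 3 counts per group, and ratios against 1 to 3 counts have exact 95% counting intervals, which cover counting error only. Coordinates are GENCODE 44 on GRCh38, and promoters are RefSeq. The edgeR fits for STAG2 KO, EZH2 KO, STAG1 KO and the STAG2 minus STAG1 difference, and the limma fit, were tested on simulated data. The other comparisons and DESeq2 were not.

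The members and gene lists were chosen with earlier results of these data known. Members called or past 2-fold were described, and the others were given by level, range or count. A list gene was named when called with a mean of at least 1 CPM, up to 4 per list and comparison. Some list genes are not reported here. Alternatives included DESeq2 1.42.0, other filters, each experiment alone and leaving out each library. Where libraries of a group come from the same clone, p-values measure only the spread between these libraries. Correlations of deviations of same-numbered libraries were 0.0257, 0.0372 and 0.00402 in the knockdown, so numbers were not taken to pair libraries.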

Additional observations from a re-analysis of the deposited data

Results flagged for a closer look

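TBX1 was at 14.8 CPM in the library of STAG2 KO clone 5 of experiment 2, far from the other KO libraries, of which the next highest was at 2.57 CPM. It was the single library flagged among 30 groups of members screened for a library far from the others, a screen that flags about 5% of groups by chance. The gap was 0.859 of the group's range.

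The effect of STAG2 KO differed from that of STAG1 KO by a direct test for SOX9 (difference -4.60 on the log2 scale, adjusted p = 0.000564 by edgeR) and for SOX11 (difference 1.37, adjusted p = 0.00397 by edgeR).

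For 5 members the log2 ratios of the isogenic pairs had opposite signs, each with 1 library per arm, and the difference between pairs was not tested. The log2 ratios without over with STAG2 in SK-N-MC and A4573 were 1.39 and -0.70 for SOX6, 0.67 and -1.05 for SOX8, 2.20 and -0.03 for TBX2, 0.62 and -1.24 for TBX6, and 1.10 and -0.65 for TBX15. The TBX2 value in A4573 rests on 48 against 51 counts and is close to no difference.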

How the results depend on the processing

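In STAG2 KO cells 7 members were called instead of 4 with DESeq2 and 7 in experiment 1 alone, 1 (SOX9) in experiment 2 alone, 2 (SOX9 and SOX11) when both WT clone libraries of experiment 1 were added up, and 2 to 6 when each library was left out. Leaving out each library gave 2 to 10 in EZH2 KO, 6 to 12 in SUZ12 KO, 8 to 11 between STAG2 KO and PRC2 KO, 0 to 3 in STAG1 KO, 1 to 3 for the difference of STAG2 KO and STAG1 KO effects and 6 to 7 in the knockdown. In STAG1 KO cells DESeq2 called 7 members and the fit with no filter on low counts 2 (SOX6 and TBX1) instead of 0. At least 50 counts in the pair left 5 members past 2-fold in SK-N-MC. With the replicate number as a block the knockdown called 8 members, as without it. With clone number as a block 0 members were called between SUZ12 KO and EZH2 KO. The causes were not tested, other than the smaller number of libraries or genes that an alternative leaves by construction. The share of all genes called in each setting is not given beside these counts, so they do not compare members with other genes. Of 678 alternative values of the 61 gene results behind these counts, 572 kept direction and side of the threshold, 95 kept direction and missed it, 11 newly passed it and 0 changed sign. Members under 3 counts per library are below what this depth can measure.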
